A study of Homo sapiens with 8 samples.

Results

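The metallothioneins MT1E, MT1F, MT1G, MT1X and MT2A, the zinc-sensing factor MTF1 and the zinc exporter SLC30A1 were followed in Caco-2 cells with and without exosomes of M2 macrophages. These 7 genes were chosen by symbol, as a family and its zinc-response partners, and each matched 1 row among the 58735 genes of the deposited table. Caco-2 is a human colorectal carcinoma line that the series uses for intestinal epithelium, labelled wild type. The control group (3 libraries) is titled untreated, and the culture protocol names the buffer PBS for it; the treated group (3 libraries) received M2-exo, exosomes whose source in the labels is THP-1, a human monocytic leukaemia line. The dose, the duration and whether the libraries of a group came from separate cultures are not stated in the labels. The p-values below therefore describe variation among 6 libraries of 1 line, part or all of which could be technical.

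Metallothioneins are very small, cysteine-rich proteins that bind zinc and copper, buffer free zinc and trap toxic metals such as cadmium. When zinc inside the cell rises, MTF1 binds it through its zinc fingers, enters the nucleus and occupies metal response elements in the promoters of metallothionein genes and of SLC30A1, the plasma membrane transporter that exports zinc. In the intestine this circuit sets how much dietary zinc stays in the enterocyte, and metallothionein genes also respond to glucocorticoids and oxidative stress.

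The response elements themselves show how differently these genes are equipped. RefSeq promoter windows of GRCh38.p14, from 250 bases before to 50 after each start, matched MT1X, MT2A, MTF1 and SLC30A1, 4 of the 7 genes; MT1E, MT1F and MT1G had no entry. The element's core was searched as TGCACNC and TGCGCNC on both strands. The MT2A window held 8 cores, 5 on the gene's strand and 3 on the other, and MT1X held 4, SLC30A1 2 and MTF1 0. Among 35116 windows of the same length, 29.6% held at least 1 core, 8.60% at least 2, 0.601% at least 4 and 0.0199% (7 windows) at least 8. Both MT2A and MT1X also carried TATAAA between 50 and 21 bases before the start, on the gene's strand, as did 2.43% of all windows. The stretches below are a selection of 7 of the 14 cores, all upstream of the start, shown so that the letters shared by the 3 genes can be compared. Capitals mark the core, each is written so that the core reads forward, and the second bracketed item is the genomic strand printed.
MT2A core at -168 (chr16:56608405-56608433, minus): gcacccggctcTGCACACgggccgcgggc
MT2A core at -88 (chr16:56608485-56608513, minus): cgggcgctgccTGCACACgccccgcgctg
MT2A core at -54 (chr16:56608519-56608547, plus): ggcggggctttTGCACTCgtcccggctct
MT1X core at -122 (chr16:56682337-56682365, plus): tcacgggttgcTGCACCCggcccaggatc
MT1X core at -78 (chr16:56682381-56682409, minus): cgcctcgtcctTGCACCCgcccctgctga
MT1X core at -53 (chr16:56682406-56682434, plus): ggcggggcctcTGCGCCCggccctcttcc
SLC30A1 core at -49 (chr1:211579193-211579221, plus): aaactttgcttTGCACTCggaacccccgt
Positions count from the RefSeq start and give the core's base farthest upstream. The MT2A window lies inside the deposited gene model, which begins further upstream. The SLC30A1 window (211579112 to 211579411) lies wholly upstream of its deposited model, which on the minus strand begins at 211578742. A match describes letters only; no binding was measured here.

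**Figure D1:**
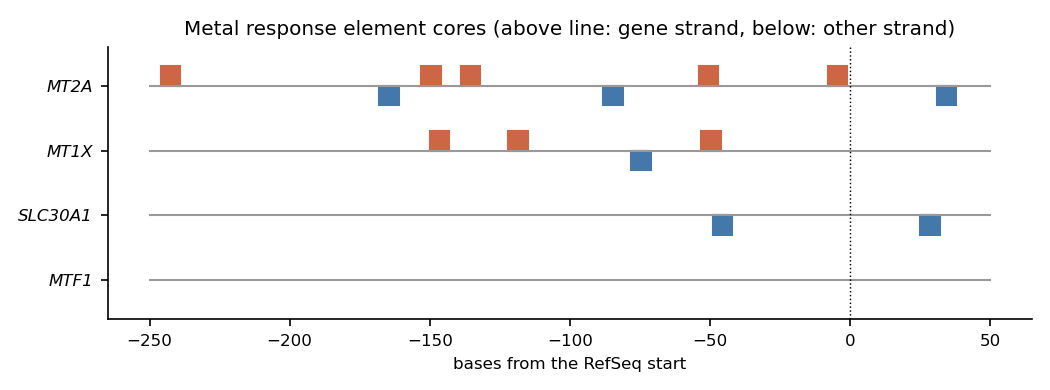
Positions of the metal response element cores in the 4 promoter windows, in bases from the RefSeq start on the x axis; boxes above a line lie on the gene's strand and boxes below on the other. MT2A has 8 boxes, MT1X 4, SLC30A1 2 and MTF1 none.

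Library totals ran from 15608937 to 18324599 counts. The untreated libraries held both ends of the first principal component (50.1% of variance), at -56.0, 0.479 and 43.2 for libraries 1 to 3. The treated libraries 1 to 3 lay between, at -13.4, 1.89 and 23.8. Untreated 1 had a mitochondrial share of 4.16%, against 7.01% to 8.11% elsewhere. Epithelial markers fixed for Caco-2 were strong, such as EPCAM (854 CPM untreated, 845 treated) and CDH1 (1099 and 1107), but 4 of 14 (KRT20, CDX1, LGALS4, GPA33) had only 1 to 19 counts over all libraries. The cell type field of the labels reads stem cells. Of 5 pluripotency markers, NANOG and DPPA4 were at 0 in every library, and ZFP42 and LIN28A had too few counts to test. SOX2 was detected (44.8 and 44.7 CPM). The 5 intestinal stem markers summed to 91.6 to 145 CPM in untreated and 94.0 to 166 CPM in treated libraries. The crypt gene LGR5 is among them (62.7 CPM in untreated cells). The 8 fibroblast markers summed to 69.6 to 80.7 CPM in untreated and 70.7 to 94.5 CPM in treated libraries. COL1A1 had 29.7 and 27.6 CPM, but COL1A2 and DCN had 2 counts each. The 14 macrophage markers summed to 16.9 to 21.5 CPM in untreated and 13.4 to 20.5 CPM in treated libraries. Of these markers, 5 were detected in every library with enough counts to test: CD14 (7.32 CPM untreated, 6.68 treated), LYZ (4.12 and 2.63), CSF1R (3.43 and 4.18), AIF1 (2.18 and 1.88) and FCER1G (1.07 and 0.888). The other 9 had at most 31 counts over all libraries, with CD68, TYROBP and C1QA at 0 and PTPRC at 1, and the part of any such RNA in the results was not tested. In such bulk libraries, fewer cells making a gene and less RNA per cell cannot be told apart.

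Few counts were assigned to the metallothioneins in these libraries. MT1F, at chromosome 16 from 56657694 to 56660698 (ENSG00000198417), led by count with 327 over the 6 libraries, followed by MT2A, the broadly expressed main human isoform (ENSG00000125148, 56608199 to 56609497), with 278. MT1X (ENSG00000187193, 56682424 to 56684196) had 96, MT1E (ENSG00000169715, 56625475 to 56627112) 23 and MT1G (ENSG00000125144, 56666731 to 56668065, minus strand) 5. Together the 5 genes took 729 counts, 91.0% of the 801 assigned to the 21 metallothionein genes and pseudogenes looked up. Of the other 16, 9 had no count in any library, 6 had 1 to 9, and MT1A alone had more, with 58. With a set limit of 3 counts, a gene at 0 throughout could still have 0.0287 CPM over the 6 libraries. The family is a chain of near-identical copies: 16 of the 21 lie within 119148 bases on chromosome 16, from MT4 to MT1X. How the authors' counting treated reads that match several copies, and strand, is not stated in the labels. The split between isoforms and the total of the family are therefore uncertain.

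**Figure D2:**
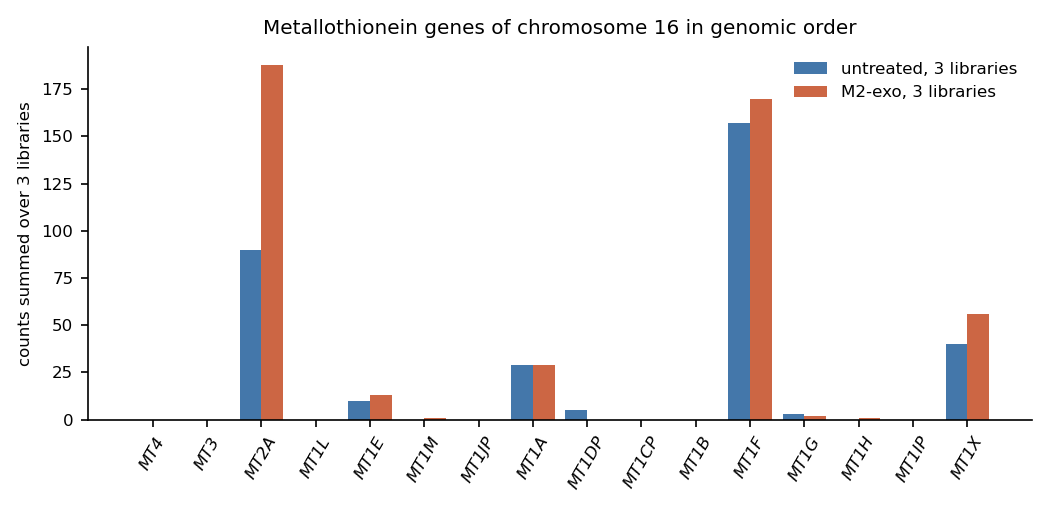
Counts summed over the 3 libraries of each group (y axis) for the 16 metallothionein genes and pseudogenes of chromosome 16, in genomic order (x axis). MT2A and MT1F stand out, and MT2A has 90 untreated and 188 treated counts while MT1F has 157 and 170.

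On the scale per length, the deposited FPKM, SLC30A1 stood far above the rest, with 20.1 ± 2.97 FPKM without and 17.4 ± 1.21 FPKM with M2-exo (mean ± SD, 3 libraries a group), the 91.2nd percentile of all genes with any FPKM. Below it in untreated cells came MT1F (1.59 ± 0.316), MTF1 (1.51 ± 0.113) and MT2A (1.33 ± 0.382), whose ranges overlapped from each to the next. Then came MT1X (0.432 ± 0.116), below the range of MT2A, and MT1E (0.192 ± 0.196) and MT1G (0.0835 ± 0.145), overlapping neighbours again. In treated cells MT2A moved to the second place at 2.72 ± 1.29 FPKM, and its lowest library (1.76) lay just above the highest of MT1F (1.73) but below the highest of MTF1 (1.95), so MT2A and MTF1 overlapped. MT1F (1.68 ± 0.0466) and MTF1 (1.65 ± 0.321) overlapped there, and MT1X (0.596 ± 0.462), MT1E (0.230 ± 0.261) and MT1G (0.0493 ± 0.0427) followed. The lengths behind these values are the table's own. For MT2A (1299 bases) and MT1X (1773) they equal the whole genomic span, introns included, against 62.9% of the span for MT1F. The levels of the metallothioneins, and the order among MT2A, MT1F and MTF1, therefore rest on the gene models.

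The comparison asked which of these genes differed after M2-exo. None passed: edgeR's quasi-likelihood test called 0 of 15084 genes (0% of all tested), with an adjusted p of 0.9999 for every tested member. An unadjusted p under 0.05 by edgeR was reached by 111 genes (0.736%). DESeq2, which tested 29413 genes, also called 0, with 124 such genes. So did limma-voom on the 15084 genes, with 104. The edgeR share is smaller than a threshold of 0.05 is meant to pass when no gene differs. The lack of calls therefore does not show that no gene differed. Over left-out libraries, such genes by edgeR numbered from 76 (without treated 2) to 370 (without untreated 1). Of the 7 members, 5 had enough counts to test; MT1E and MT1G did not. Of these 5, 4 had a log2 fold change above 0 and 1 below, with a median of 0.12, beside -0.01 over all genes tested, of which 47.1% were above 0.

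MT2A showed the widest difference of the members. Its counts were 25, 41 and 24 in the untreated libraries 1 to 3, against 41, 95 and 52 in the treated ones. Scaled by TMM, a factor that evens out library composition, these are 1.59, 2.29 and 1.35 CPM against 2.31, 5.45 and 2.90 CPM. Treated 2 is the high library, and the groups are separated only by the gap between untreated 2 and treated 1, which have the same count of 41. On the deposited FPKM scale the same pair overlaps (1.760 untreated, 1.758 treated). The means were 1.74 ± 0.491 and 3.55 ± 1.67 CPM, a log2 fold change of 1.02 (SE 0.39, 95% interval 0.13 to 1.91), or 2.03-fold (1.10 to 3.76). By edgeR the unadjusted p was 0.0288 and the adjusted p 0.9999; 44 of the 15084 tested genes had a larger log2 fold change. The groups did not overlap on the TMM scale in 3.95% of genes tested (1.65% upward), and MT2A was the only one of the 5 tested members to show it. Without treated 2 the log2 fold change was 0.57, with an unadjusted p of 0.174 by edgeR. For the other left-out libraries this p ran from 0.0135 (without treated 1) to 0.0769 (without untreated 3). It was 0.0105 with a replicate block and 0.0050 without a filter on low counts. No run passed the adjusted threshold for MT2A. For the count of 95 the exact Poisson interval is 76.9 to 116, and for 41 it is 29.4 to 55.6; these cover counting error only, since no molecular identifiers separate copies of a molecule. Within treated cells MT2A varied by 47.1% (coefficient of variation), where counting alone gives 12.6%.

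The MT1 isoforms did not share this pattern in every library. MT1F had 38, 64 and 55 counts in the untreated libraries, against 57, 57 and 56 in the treated ones. That is 3.03 ± 0.586 and 3.20 ± 0.0760 CPM, with a log2 fold change of 0.08 (SE 0.27, interval -0.52 to 0.68; unadjusted p = 0.779 by edgeR). The treated values lie inside the untreated range. Without untreated 1, which has the lowest count, the log2 fold change was -0.054.

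MT1X had 10, 12 and 18 counts in untreated and 22, 31 and 3 in treated cells. Treated 1 and 2 exceed all untreated libraries and treated 3 lies below them all, so the groups overlap. The log2 fold change was 0.45 (SE 0.67, interval -1.07 to 1.96; unadjusted p = 0.522 by edgeR), but -0.054 by limma-voom and -0.14 without treated 2. Treated MT1X varied by 77.3% and untreated by 26.9%, where counting gives 23.1% and 27.4%. MT2A and MT1X thus parted in treated 3, where MT2A was at its second highest and MT1X at its lowest of the 6 libraries.

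MT1E had 7, 2 and 1 counts in untreated and 10, 2 and 1 in treated libraries. The highest library is number 1 in both groups, and the groups overlap. MT1A, outside the 5, had 13, 4 and 12 counts in untreated and 18, 6 and 5 in treated libraries (log2 fold change -0.06, SE 0.66) and was likewise highest in number 1 of each group. MT1G, a gene known for strong induction by zinc, had 3, 0 and 0 untreated and 1, 0 and 1 treated counts. The 95% exact Poisson interval for a count of 0 reaches 3.69. With a set limit of 3 counts, a library at 0 allows up to 0.168 to 0.172 CPM in those 3 libraries. Differences of that size in MT1G could not be seen at this depth, and no library came near the 41 to 95 counts of treated MT2A.

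**Figure D3:**
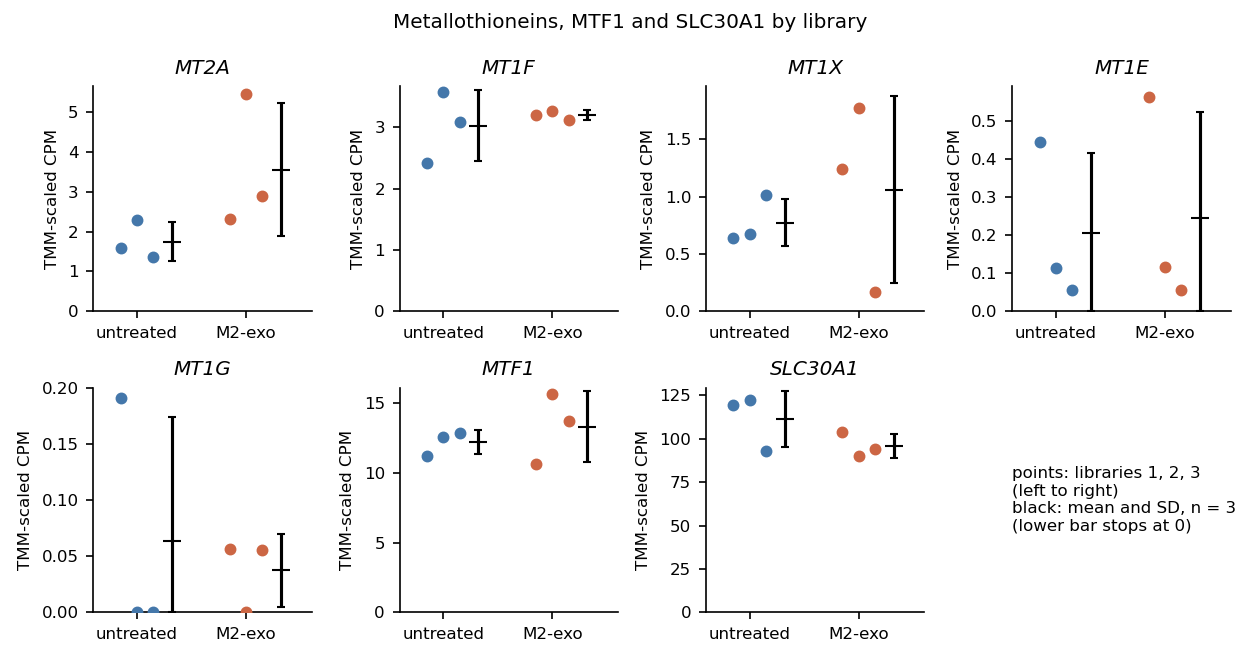
TMM-scaled CPM of each of the 7 genes (y axis, from 0) in the 3 untreated (blue) and 3 M2-exo treated (orange) libraries, with mean and SD in black. For MT2A treated 2 reaches 5.45 CPM, for MT1F the treated points lie between 3.12 and 3.27, and SLC30A1 ranges from 90.0 to 122.

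Summed, the 5 metallothioneins reached 5.27, 6.66 and 5.51 CPM in untreated and 7.37, 10.6 and 6.30 CPM in treated libraries. The group means were 5.81 ± 0.740 and 8.10 ± 2.25 CPM, a log2 ratio of 0.48, and treated 3 lies below untreated 2. Leaving out treated 2 gave 0.23. Most of this is MT2A: the other 4 summed to 4.07 ± 0.349 and 4.54 ± 0.992 CPM, a log2 ratio of 0.16. The share of MT2A in the summed counts was 30.1%, 34.5% and 24.5% in untreated and 31.3%, 51.4% and 46.0% in treated libraries, while MT1F held 45.8% to 56.1% and 30.8% to 49.6%. Untreated 2 again exceeds treated 1 in the share of MT2A, so both ranges overlap, and no p is given for a sum over chosen genes.

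**Figure D4:**
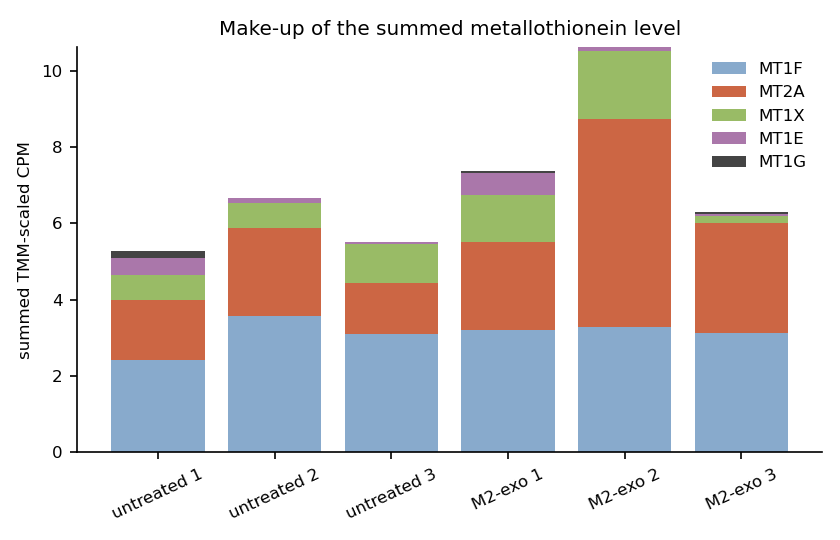
Stacked bars of TMM-scaled CPM for the 5 metallothioneins in each library. The MT1F part differs little, from 2.41 to 3.58 CPM, and the tall bar of treated 2 (10.6 CPM) holds 5.45 CPM of MT2A and 1.78 CPM of MT1X.

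The regulator and the exporter were far better covered than the metallothioneins. MTF1 (ENSG00000188786, chromosome 1 from 37809567 to 37859620, minus strand) had 177, 225 and 229 counts in untreated and 189, 273 and 246 in treated cells. Its levels of 11.2, 12.6 and 12.9 CPM overlap those of 10.6, 15.7 and 13.7 CPM; treated 1 is the lowest and treated 2 the highest of all 6. The log2 fold change was 0.12 (SE 0.21, interval -0.35 to 0.59; unadjusted p = 0.567 by edgeR), and -0.0075 without treated 2. SLC30A1 (ENSG00000170385, chromosome 1 from 211571568 to 211578742, minus strand) had 1876, 2183 and 1649 untreated and 1841, 1567 and 1688 treated counts. At 119, 122 and 92.8 CPM against 104, 90.0 and 94.1 CPM, untreated 1 and 2 exceed all treated libraries, whereas untreated 3 lies between them. The log2 fold change of SLC30A1 was -0.22 (SE 0.15, interval -0.56 to 0.13; unadjusted p = 0.194 by edgeR), with a fold interval of 0.677 to 1.10. Leaving out 1 library moved it between -0.12 (without untreated 2, unadjusted p = 0.510 by edgeR) and -0.32 (without untreated 3, unadjusted p = 0.0484), and it was below 0 under every alternative run.

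MT2A and SLC30A1 had log2 fold changes on opposite sides of 0, neither past the test, and the interval of SLC30A1 (-0.56 to 0.13) spans 0. Treated 2 had the highest MT2A and MTF1 and the lowest SLC30A1 of the 6 libraries.

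The other zinc transporters gave the setting for SLC30A1. Of 10 genes of the exporter family SLC30, SLC30A1 itself included, 8 were tested. Of these, 1 was above 0 and 7 below (median log2 fold change -0.13), none past the adjusted threshold and none with separate groups. Among the 7 are SLC30A1 and the sparsely counted SLC30A2, SLC30A3 and SLC30A4, with 67, 78 and 70 counts over all libraries. SLC30A1 had the highest mean FPKM of them, 18.8, followed by SLC30A6, a transporter of the Golgi that pairs with SLC30A5, at 13.7. SLC30A6 was at a log2 fold change of -0.01 (SE 0.22), SLC30A5 at -0.06 (SE 0.16), the Golgi transporter SLC30A7 at 0.04 (SE 0.21) and SLC30A9 at -0.03 (SE 0.17). SLC30A10, which exports manganese, had 7 counts over all libraries and SLC30A8, the insulin granule transporter, none. Of 14 importers of the SLC39 family, 12 were tested, with 5 above and 7 below 0 (median -0.04) and none past the threshold. The highest mean level was that of SLC39A7, which releases zinc from the endoplasmic reticulum, at 79.7 ± 10.9 and 71.5 ± 6.89 FPKM (log2 fold change -0.16, SE 0.15), and SLC39A14, a zinc and iron importer named after its values were seen, lay close to it at 74.2 ± 2.23 and 76.2 ± 4.10 FPKM (0.03, SE 0.12). SLC39A4, the intestinal importer of dietary zinc, also singled out afterwards, had 103 counts in all. SLC39A8 stood at -0.10 (SE 0.17), SLC39A13 at 0.05 (SE 0.26) and SLC39A3 at 0.12 (SE 0.47).

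**Figure D5:**
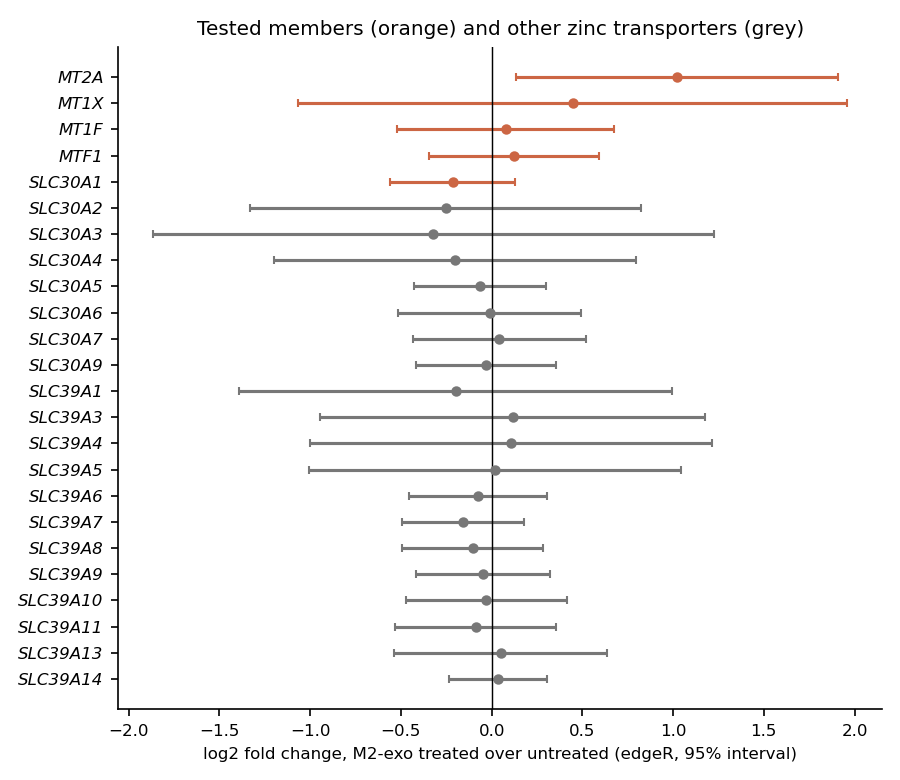
Log2 fold changes of treated over untreated cells with 95% intervals from edgeR (x axis) for the 5 tested members in orange and 19 other tested zinc transporters in grey. Among the genes drawn, the interval of MT2A, 0.13 to 1.91, alone lies to one side of 0, before any adjustment.

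Further lists covered genes around zinc, copper, glucocorticoids and metal or oxidative stress, and none of their members passed the adjusted threshold. A list of genes linked to MTF1 or zinc gave 3 of 9 above and 6 below 0 (median log2 fold change -0.05). The member SLC30A1 is on this list and is counted among those below 0. SLC39A10, also among the importers, and GCLC, also in the stress list, are on it too. The list was not sorted by the direction in which MTF1 acts, so its tally gives no direction of MTF1 activity. NDRG1, a stress-induced gene, was at 0.22 (SE 0.24) and SELENOW, a selenoprotein gene, at 0.17 (SE 0.34). PGF, a vascular growth factor gene, was at -0.22 (SE 0.32) and TFF3 at -0.14 (SE 0.30). Copper handling genes gave 2 above and 10 below 0 among 12 tested (median -0.09). HEPH, the copper-dependent ferroxidase of enterocytes, stood at 0.16 (SE 0.17), the assembly factor SCO1 at -0.01 (SE 0.15), CCS, the copper chaperone of superoxide dismutase, at -0.31 (SE 0.23), and COMMD1, which acts in copper export, at -0.41 (SE 0.21). COMMD1 was the only one with separate groups on the TMM scale, at 28.2 ± 6.48 and 21.3 ± 2.63 CPM; such separation downward was seen in 2.3% of genes tested, and it was lost on the FPKM scale.

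A list of 12 glucocorticoid targets without MT2A, itself known to respond to glucocorticoids, gave 5 above and 7 below 0, all tested (median -0.02). TSC22D3, a direct target of the glucocorticoid receptor, named after its values were seen, had 2.48, 2.97 and 3.26 CPM in untreated and 1.80, 1.55 and 1.28 CPM in treated libraries. All treated values of TSC22D3 are below all untreated ones, with a log2 fold change of -0.91 (SE 0.30, by edgeR unadjusted p = 0.0137, adjusted p = 0.9999). Such separation downward was seen in 2.3% of genes tested. TSC22D3 was the only 1 of the 12 with separate groups on the TMM scale, and it had the lowest log2 fold change of the list. CEBPD stood at 0.12 (SE 0.25), ERRFI1 at 0.11 (SE 0.16), NFKBIA at -0.15 (SE 0.20) and DUSP1, a phosphatase gene, at -0.35 (SE 0.21). Genes of metal and oxidative stress gave 5 above and 9 below 0 among 14 tested (median -0.04). Among them were the NRF2 targets OSGIN1 at 0.27 (SE 0.51) and NQO1 at -0.09 (SE 0.12), the glutathione reductase gene GSR at 0.09 (SE 0.13), and HSPA1A, an inducible chaperone gene with a near-identical copy, at -0.32 (SE 0.28). HMOX1, a heavy metal and haem inducible gene named after its values were seen, had 24.5, 35.5 and 47.5 CPM in untreated and 24.9, 38.0 and 45.3 CPM in treated libraries, so that both groups span nearly the same range.

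Likeness of pattern was ranked over the 6 libraries among 10370 protein-coding genes (mean CPM 5 or more), by Pearson's r of log2 CPM, as a description only, since with 6 points many genes rank high by number alone and all share the same libraries. Closest to the summed metallothionein level were CSRP2 (0.98), SNX9 (0.97), ABHD17B (0.96) and AVPI1 (0.96), and 14 genes reached 0.9. Closest to SLC30A1 were TDRD3 (0.99), EIPR1 (0.98), TTN (0.98) and ZNF655 (0.98), and 54 genes reached 0.9.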

How the data were processed

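Whole-number counts per gene and FPKM values were deposited by the authors for 6 Caco-2 libraries. The submitters' processing notes list CASAVA, HISAT2, featureCounts and build GRCh38 without version numbers. The deposited FPKM equal the count divided by the table's gene length and by a constant per library. The 6 columns that match no sample were not used, nor was the exosome miRNA table.

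The test on counts was that of edgeR 4.0.16 (R 4.3.3, filterByExpr, TMM, quasi-likelihood F test, 2-sided, Benjamini-Hochberg over 15084 genes, threshold 0.05). It was checked on simulated data with changes planted only in genes at a mean CPM of at least 5. No metallothionein reached that mean, so the check does not cover their levels. SE is the size of the log2 fold change over the square root of F. CPM are TMM-scaled. Alternatives used DESeq2 1.42.0, limma 3.58.1 (voom, or log2(FPKM + 1) and log2(FPKM + 0.1)), other scalings and filters, a replicate block and each library left out. Counting intervals (95%, exact Poisson) came from scipy 1.17.1. The members and lists were chosen with earlier results of these data known. Named genes were the members, other metallothioneins with at least 10 counts, up to 2 highest and 2 lowest changes per list at a mean CPM of at least 5, the zinc transporter of highest FPKM in each family, and the 4 genes most alike in pattern.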

Additional observations from a re-analysis of the deposited data

How the results depend on the processing

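Of 79 log2 fold changes of the 5 tested members under the alternatives, 75 kept their direction, 4 reversed and none passed the adjusted threshold. MT1X reversed by limma-voom (-0.054) and, over left-out libraries, ranged from -0.14 to 0.97; MT1F ranged from -0.054 to 0.23, MTF1 from -0.0075 to 0.28, MT2A from 0.57 to 1.29 and SLC30A1 from -0.32 to -0.12. The counts of 0 higher and 0 lower genes became 3 and 3 without a filter on low counts (EGR1, U2AF1L5 and BOLA2B higher; C6orf48, RN7SL2 and SMIM11A lower), and 0 to 1 higher (BOLA2B, without treated 2) and 0 to 0 lower over left-out libraries. MT2A was at 0.63 on log2(FPKM + 1), a scale that understates low genes. With a replicate block, the counts stayed at 0 and 0, and MT2A was at 0.98. An unadjusted p under 0.05 by edgeR was then reached by 211 genes, against 111. Same-numbered libraries correlated at 0.28, -0.06 and 0.48 in their deviations from group means. Untreated 1 and 3 correlated best with the treated library of their own number, and untreated 2 did not. Whether the numbers mark a shared culture or batch is not stated in the labels and was not tested. The summed metallothionein level ranged from 0.23 to 0.65 over left-out libraries. MT1E and MT1G could be fitted only without the filter (log2 0.30 and -0.59), by DESeq2 or in unfiltered FPKM. Depth limits MT1E and MT1G, where 1 count is 0.0557 to 0.0635 CPM; for treated MT2A and MT1X the spread between libraries exceeded counting error. The cause of each reversal was not tested.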
